A study of Mus musculus with 3 samples.

Results

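The intermicrovillar adhesion complex was followed through the 6 genes Cdhr2, Cdhr5, Ush1c, Myo7b, Anks4b and Calml4 in single cells of the mouse small intestine. They were taken by symbol, without use of any measured value, from the 31053 genes of the counts, and each symbol was found once. The cells came from 3 male wild-type C57BL/6N mice aged 12 weeks, whose cells were pooled and sorted for live cells by exclusion of propidium iodide. One droplet library was made from each segment, so that the Duodenum, the Jejunum and the Ileum had 1 library each and no replicate. All 3 groups thus shared genotype, strain, sex and age, and none had been treated. The paper names the FACSAria Fusion and the FACSAria IIIu as sorters, without saying which served which library. Mice could not be told apart within a library. Levels are given as unique molecular identifiers (UMIs, the tags that mark single captured RNA molecules) of a gene per 10000 UMIs of all genes, summed over the cells of a class, and are called UMIs per 10000. Reads came from the 3′ ends of transcripts and were not scaled by length, so levels were compared between cells and not between genes.

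The apical surface of an enterocyte carries a brush border of densely packed microvilli, each built on a bundle of actin filaments. Near their tips, neighbouring microvilli are tied together by thread-like links made of 2 protocadherins, CDHR2 (protocadherin-24) and CDHR5 (mucin-like protocadherin). Inside the tip, the scaffold USH1C (harmonin), the scaffold ANKS4B, the motor MYO7B and its calmodulin-like light chain CALML4 hold the links to the actin core, and the links are known to draw microvilli into clusters as enterocytes differentiate. USH1C also serves the stereocilia of the inner ear, where a related set of proteins forms the links between stereocilia, and tuft cells carry long, stiff microvilli of their own.

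On GRCm38, the build the authors counted on, 3 of the 6 genes lay on chromosome 7. Cdhr2 (ENSMUSG00000034918) spanned chr13:54701461-54736662 on the plus strand, and Cdhr5 (ENSMUSG00000025497) spanned chr7:141269083-141276786 on the minus strand. Ush1c (ENSMUSG00000030838) spanned chr7:46195350-46238503 on the minus strand, and Anks4b (ENSMUSG00000030909) spanned chr7:120173858-120185586 on the plus strand. Calml4 (ENSMUSG00000032246) spanned chr9:62858080-62875921 on the plus strand. Myo7b is ENSMUSG00000024388. The gene models held 2 exons in Anks4b, 5 in Calml4, 14 in Cdhr5, 27 in Ush1c, 32 in Cdhr2 and 47 in Myo7b. The chemistry keeps strand, and no neighbour on the same strand overlapped the last exon of a member.

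Because enterocyte genes commonly carry sites for HNF4, CDX and GATA factors, the promoters of the members were searched for short motifs of these factors. Below are the 200 bases upstream of the annotated start of 4 members, read 5′ to 3′ on the strand of the gene from RefSeq promoters on GRCm38.p6, with matched motifs in capitals. They cover the pair of protocadherins, a scaffold that held a motif and the member with the opposite course along the villus.
Cdhr2, chr13:54701261-54701460, plus strand: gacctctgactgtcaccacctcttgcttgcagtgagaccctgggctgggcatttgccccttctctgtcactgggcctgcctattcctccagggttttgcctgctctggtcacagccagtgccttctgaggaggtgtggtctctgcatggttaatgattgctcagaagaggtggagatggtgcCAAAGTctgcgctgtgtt
Cdhr5, chr7:141276787-141276986, minus strand: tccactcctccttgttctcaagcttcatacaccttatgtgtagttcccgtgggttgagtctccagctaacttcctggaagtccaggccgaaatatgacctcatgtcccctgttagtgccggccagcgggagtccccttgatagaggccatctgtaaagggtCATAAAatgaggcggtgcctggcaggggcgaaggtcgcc
Anks4b, chr7:120173658-120173857, plus strand: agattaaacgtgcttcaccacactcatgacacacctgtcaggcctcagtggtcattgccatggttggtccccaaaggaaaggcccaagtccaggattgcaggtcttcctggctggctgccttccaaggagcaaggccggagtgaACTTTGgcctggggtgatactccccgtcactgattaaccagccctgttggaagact
Calml4, chr9:62857880-62858079, plus strand: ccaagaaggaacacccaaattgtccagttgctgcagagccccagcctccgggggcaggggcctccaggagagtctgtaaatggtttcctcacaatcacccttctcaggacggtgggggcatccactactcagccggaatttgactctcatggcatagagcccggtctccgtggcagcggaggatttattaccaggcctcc
CAAAGT, the core of HNF4 sites, was found on either strand in 2 of 5 members searched (Cdhr2 and Anks4b, there as ACTTTG), against 9.84% of 32851 promoters of the same length. TTTATG, a CDX motif, was found in Cdhr5 alone (as CATAAA), against 8.51%. The longer HNF4 motif CAAAGTCCA, which holds CAAAGT within it, and the GATA motif AGATAA were found in 0 of 5 members, against 0.317% and 7.80% of all promoters. No motif was found in the window of Ush1c or Calml4. The search covered 200 bases upstream of the start, cut from promoter records that run from 250 bases upstream to 50 bases downstream. These are matches of letters, and not sites.

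After the filters of the study, 16686 of 27235 barcodes were kept. Duodenum, Jejunum and Ileum had medians of 12424, 11737 and 5536 UMIs per cell, and median mitochondrial shares were 27.1%, 27.2% and 11.1%, so depth and mitochondrial RNA moved with the segment. Between 4 and 12 kept barcodes were shared by a pair of libraries. Clusters were called without the 6 genes and named by marker lists, which gave 10541 enterocytes, 1052 early enterocytes, 748 goblet cells, 301 tuft cells, 170 enteroendocrine cells (EECs), 224 intestinal stem or proliferating cells (ISC/proliferating), 24 Paneth cells, 1235 T cells, 571 B cells, 87 IgA B cells, 83 macrophages or monocytes and 22 dendritic cells. Another 1628 cells stayed unnamed and were left out. In UMIs per 10000, 11 of 13 enterocyte markers, 7 of 9 early enterocyte (Dmbt1 and Gsdmc2 were highest in ISC/proliferating cells), 8 of 9 goblet, 10 of 10 tuft, 12 of 12 EEC, 10 of 11 ISC/proliferating and 11 of 11 T cell markers were highest in the class they name. Of the enterocyte markers, Fabp1 was highest in tuft cells and Sis in early enterocytes. Tests between classes used sums of UMIs per library and class, with the library as a block, in edgeR's quasi-likelihood model over 11202 genes. All sums came from the same 3 libraries. With the library as a block, the p-values measure how much differences between classes varied from library to library. They do not measure the spread between mice, which were pooled.

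Enterocytes held all 6 genes (n = 3 libraries, given in the order Duodenum, Jejunum, Ileum). Cdhr2 was measured at 16.7, 15.4 and 21 UMIs per 10000, and Cdhr5 at 17.5, 19.1 and 27.8. Per UMI of all genes, the protocadherins were thus highest in the Ileum. The motor Myo7b stood at 2.15, 2.63 and 2.88, and the scaffold Anks4b at 1.47, 1.65 and 1.92. Both rose from Duodenum to Jejunum to Ileum on this scale. Per non-mitochondrial UMI, in enterocytes and early enterocytes together, both were lower in the Ileum than in the Jejunum. The log2 ratios were -0.20 for Myo7b and -0.06 for Anks4b. The scaffold Ush1c stood at 1.28, 1.14 and 1.47, and the light chain Calml4 at 4.97, 4.09 and 3.65. Calml4 alone was highest in the Duodenum and lowest in the Ileum.

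T cells, which have no brush border, gave the level at which UMIs of these genes turn up in cells that should lack them. Over the 6 members their level was 12.7% to 19.9% of that of enterocytes, and it was uneven between libraries, with Cdhr2 at 5.88, 1.41 and 2.70 UMIs per 10000. Most of it sat in few cells. The 125 of 1235 T cells highest in enterocyte markers held 62.1% (Calml4) to 86.1% (Cdhr2) of the members' UMIs in T cells, and without these cells Cdhr2 stood at 0.463, Cdhr5 at 0.815, Myo7b at 0.154 and Ush1c at 0.0647. All 6 members were lower in T cells than in enterocytes, by 3.01 (Myo7b) to 3.70 (Calml4) on the log2 scale. Of all genes, 33.9% were lower in T cells.

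**Figure D1:**
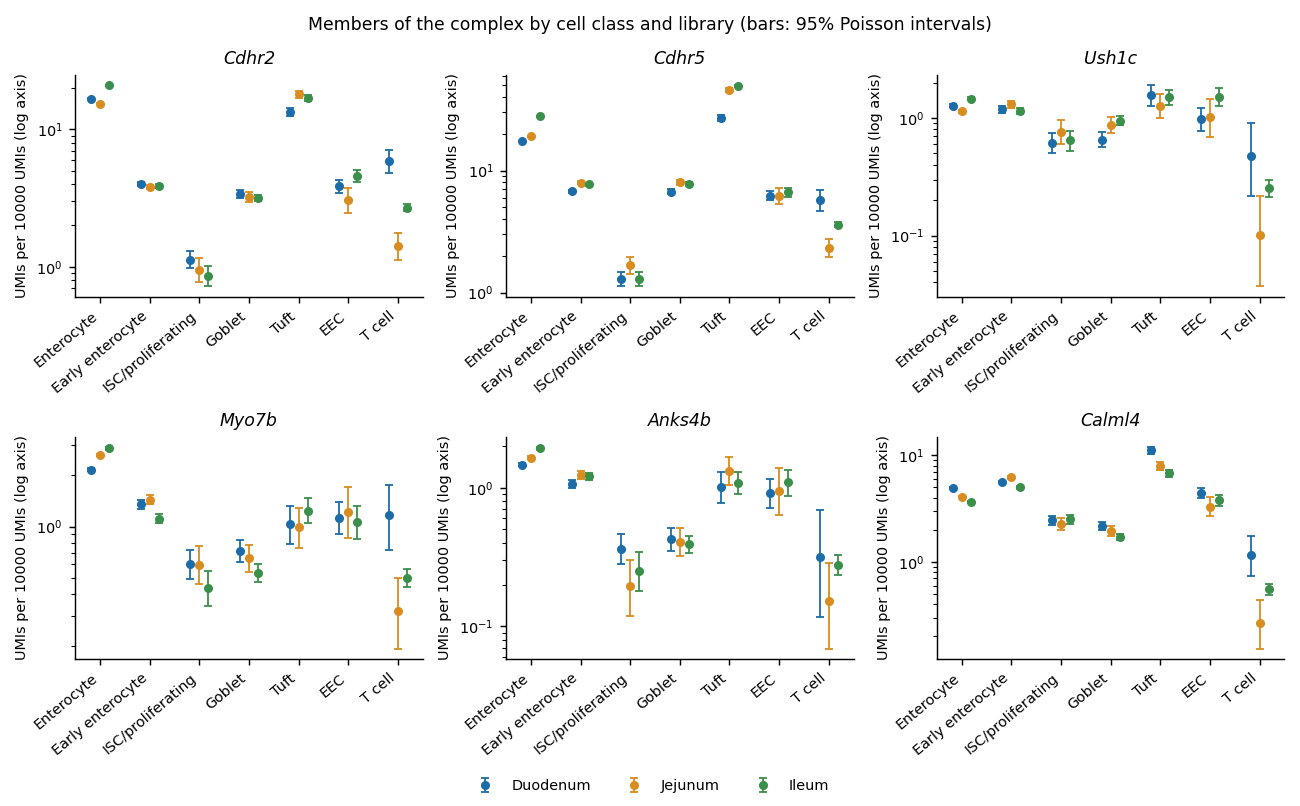
Levels of the 6 members by cell class, as UMIs per 10000 UMIs on a log axis. Each point is 1 library, and bars are exact 95% Poisson intervals, which cover counting error only. Cdhr5 in tuft cells, at 27.0 to 49.2, was above its levels in every other class of the same library, and Cdhr2 and Cdhr5 were lower in ISC/proliferating cells than in the other classes drawn.

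The members were followed from ISC/proliferating cells to early enterocytes and on to enterocytes. Of the ISC/proliferating cells, 124 formed a cluster led by Ube2c, Top2a and Mki67. It scored 0.533 on the ISC/proliferating marker list and 0.526 on that of early enterocytes. At the lower clustering resolution of 0.4, a cluster of 121 cells led by the same genes stayed unnamed. ISC/proliferating cells held the protocadherins and Anks4b at low levels, with Cdhr2 at 1.13, 0.951 and 0.857 UMIs per 10000, Cdhr5 at 1.31, 1.68 and 1.29, and Anks4b at 0.364, 0.196 and 0.253. Over the libraries together, Calml4 had the smallest gap to enterocytes. In the Jejunum Ush1c did, at 67.0% of the enterocyte level against 55.2% for Calml4. Calml4 stood at 2.46, 2.26 and 2.52, above its level in goblet cells of every library. Against enterocytes all 6 members were lower in ISC/proliferating cells, by 4.96 on the log2 scale for Cdhr2 (edgeR adjusted p = 1.8e-08) down to 1.58 for Calml4 (edgeR adjusted p = 0.000102), where 33.6% of all genes were lower. These levels of the protocadherins were below those of untrimmed T cells.

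Early enterocytes, named by markers such as Reg3b and Reg3g, were higher than ISC/proliferating cells in all 6 members, by 1.30 (Ush1c) to 2.83 (Cdhr5) on the log2 scale, where 23.3% of all genes were higher and 22.8% lower. The light chain Calml4 and the scaffold Ush1c were not called different from enterocytes. Calml4 stood at 5.62, 6.18 and 5.00 UMIs per 10000 and Ush1c at 1.19, 1.31 and 1.16. In UMIs per 10000, without TMM, Calml4 was above enterocytes in every library, at 113%, 151% and 137% of their level. With TMM, their log2 differences from enterocytes were 0.09 (SE 0.31, edgeR adjusted p = 0.850) and -0.40 (SE 0.26, edgeR adjusted p = 0.226). Cdhr2, at 4.01, 3.81 and 3.88, was still far below enterocytes in every library, and so was Cdhr5, at 6.76, 7.98 and 7.71. Early enterocytes were lower in Cdhr2 by 2.51 (SE 0.50, edgeR adjusted p = 0.000197), in Cdhr5 by 1.84 (edgeR adjusted p = 0.0036), in Myo7b by 1.33 (edgeR adjusted p = 0.00146) and in Anks4b by 0.86 on the log2 scale (edgeR adjusted p = 0.0245). That made 4 of 6 members, where 21.9% of all genes were lower. Without the Ileum, 2 of them (Cdhr2 and Myo7b) passed the test, and without the Jejunum Anks4b did not. Early enterocytes had more UMIs per cell than enterocytes, with medians of 24397 and 9922.

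In goblet cells, which secrete mucus, all 6 members were lower than in enterocytes, from 2.47 (Cdhr2) down to 0.68 (Ush1c, edgeR adjusted p = 0.0426) on the log2 scale, where 22.1% of all genes were lower. Goblet cells still held Cdhr5 at 6.68, 8.02 and 7.74 UMIs per 10000, and Cdhr2 at 3.38, 3.24 and 3.16. Without the Ileum, 3 of 6 passed (Cdhr2, Myo7b and Anks4b), and Ush1c did not pass without any 1 of the libraries. Against T cells, 5 of 6 were higher in goblet cells, where 25.4% of all genes were higher, and Cdhr2 was not (log2 difference 0.93, edgeR adjusted p = 0.116). That count was 3 without the Ileum and 2 on library totals without TMM, edgeR's scaling by trimmed mean of M-values.

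EECs, the hormone-secreting cells, were lower than enterocytes in all 6 members, by 3.0 for Cdhr2 and 2.52 for Cdhr5 down to 0.92 for Ush1c on the log2 scale, where 27.8% of all genes were lower. Their Cdhr2 stood at 3.84, 3.06 and 4.57 UMIs per 10000, and their Calml4 at 4.44, 3.30 and 3.78. In UMIs per 10000 of the Ileum, Ush1c and Calml4 were not lower in EECs, at 104% of the enterocyte level for both. Without TMM, which moved the median of all genes in this comparison to 0.76 on the log2 scale, Ush1c and Calml4 were not called. Without the Ileum neither was called, and without the Jejunum Calml4 was not. Ush1c, Myo7b, Anks4b and Calml4 were higher in EECs than in T cells, which is 4 of 6, where 21.4% of all genes were higher. The protocadherins were not called, with log2 differences of 0.40 (Cdhr2) and 0.83 (Cdhr5). The 24 Paneth cells were too few for the test and held Cdhr5 at 1.61 and Cdhr2 at 0.927 over all libraries.

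Tuft cells held as many UMIs per 10000 of the protocadherins as enterocytes or more, apart from Cdhr2 in 2 of 3 libraries, and fewer of the motor. Cdhr5 reached 27.0, 45.3 and 49.2 UMIs per 10000 in tuft cells against 17.5, 19.1 and 27.8 in enterocytes, and was higher in every library, by 1.54-, 2.37- and 1.77-fold. Calml4 reached 11.1, 7.92 and 6.78 and was also higher in every library, by 2.23-, 1.94- and 1.86-fold. Neither passed the test, with log2 differences of 0.34 for Cdhr5 (SE 0.48, edgeR adjusted p = 0.589) and 0.40 for Calml4 (SE 0.31, edgeR adjusted p = 0.306), where 23.4% of all genes were higher in tuft cells. Without TMM the median of all genes moved from -0.08 to 0.50 on the log2 scale in this comparison. Calml4 then passed the test (log2 difference 1.01), as it did with DESeq2 (0.64).

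Cdhr2, at 13.3, 17.9 and 16.8 UMIs per 10000 in tuft cells, lay above enterocytes in the Jejunum and below them in the other two libraries. Its log2 difference was -0.70 (SE 0.47, edgeR adjusted p = 0.232). Ush1c, at 1.57, 1.27 and 1.51, differed by -0.43 (SE 0.27, edgeR adjusted p = 0.205), which became 0.17 without TMM. Myo7b, at 1.03, 0.993 and 1.24, was lower in tuft cells than in enterocytes in every library and by 1.82 on the log2 scale (SE 0.34, edgeR adjusted p = 6.36e-05). Anks4b, at 1.01, 1.32 and 1.08, was lower by 1.15 (SE 0.32, edgeR adjusted p = 0.00386). These were 2 of 6 members, where 25.2% of all genes were lower. Without the Ileum, or without TMM, Myo7b alone passed.

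Between the secretory classes, tuft cells were higher than goblet cells in Cdhr5 by 1.88 (SE 0.49, edgeR adjusted p = 0.00395), in Cdhr2 by 1.77 (edgeR adjusted p = 0.00571), in Calml4 by 1.56 (edgeR adjusted p = 0.00036) and in Anks4b by 0.92 on the log2 scale (edgeR adjusted p = 0.0347). That was 4 of 6, where 16.0% of all genes were higher. Without the Ileum, Calml4 alone passed, and Anks4b did not pass without any 1 of the libraries. Ush1c and Myo7b, both at a log2 difference of 0.25, did not. Against T cells all 6 members were higher in tuft cells, where 21.4% of all genes were higher. Enterocyte markers made up a median of 0.883% of the UMIs of a tuft cell, 0.493% of a goblet cell, 0.610% of an EEC and 10.0% of an enterocyte.

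The members' shares of their own joint UMIs do not depend on how classes are scaled. Of the UMIs of the 6 genes, Calml4 took 38.0%, 35% and 41.9% in ISC/proliferating cells, 28.1%, 28.2% and 24.9% in early enterocytes, and 11.3%, 9.28% and 6.22% in enterocytes. The share of Calml4 thus fell at each of these steps in every library. Cdhr5 took 49.0%, 60.6% and 64.2% in tuft cells and 47.6%, 53.0% and 53.5% in goblet cells. In enterocytes it took 43.6% over all libraries and Cdhr2 took 37.9%, 35% and 35.7%. The shares are values without a test. The summed level of the 6 genes was 55.0, 74.7 and 76.7 UMIs per 10000 in tuft cells, 44.1, 44.0 and 58.7 in enterocytes, 20.0, 22.0 and 20.1 in early enterocytes and 6.47, 6.44 and 6.01 in ISC/proliferating cells.

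**Figure D2:**
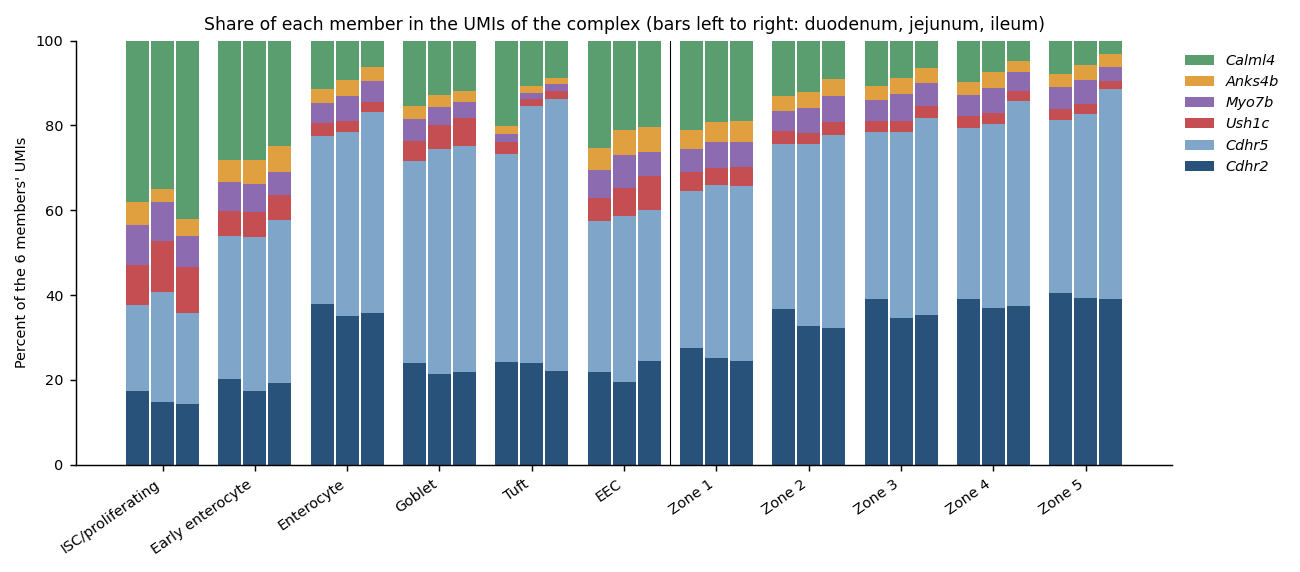
Share of each member among the UMIs of the 6 genes, in percent, by cell class and by villus zone, with 1 bar for each library in the order Duodenum, Jejunum, Ileum. Over the 3 libraries, Calml4 went from 38.7% in ISC/proliferating cells to 8.89% in enterocytes, and from 19.7% in zone 1 to 5.27% in zone 5.

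Per cell, the protocadherins were found in nearly every enterocyte and tuft cell, while the other members were often missed at an even depth. With each cell thinned to 3000 UMIs, Cdhr5 had at least 1 UMI in 99.2% of enterocytes, 98.9% of tuft cells, 88.7% of goblet cells, 75.9% of EECs and 26.5% of ISC/proliferating cells, against 26.4% of T cells. Cdhr2 was found in 98.1% of enterocytes and 94.6% of tuft cells, against 59.3% of goblet cells and 19.8% of T cells. Calml4 was found in 62.4% of enterocytes, 74.9% of early enterocytes, 78.5% of tuft cells and 47.5% of ISC/proliferating cells, against 8.35% of T cells. The share of ISC/proliferating cells with Cdhr5 was thus near that of untrimmed T cells, whereas that with Calml4 was above it. Of the T cells, 1092 came from the Ileum. Without the T cells highest in enterocyte markers, Cdhr5 in T cells stood at 1.09, 0.495 and 0.844 UMIs per 10000. These values lay below those of ISC/proliferating cells in every library, but the ISC/proliferating cells were not trimmed in the same way. In the Duodenum the T cell value rested on 14 UMIs. Its 95% interval of 0.596 to 1.83 took in the ISC/proliferating value. How much of Cdhr5 in ISC/proliferating cells was background was not tested. On average an enterocyte showed 3.86 of the 6 members, a tuft cell 3.61, an early enterocyte 3.11, an EEC 2.75, a goblet cell 2.34, an ISC/proliferating cell 1.44 and a T cell 0.697. Thinning left out the cells with fewer UMIs, which were 715 of 10541 enterocytes, 11 of 1052 early enterocytes, 137 of 748 goblet cells, 41 of 301 tuft cells, 37 of 170 EECs, 24 of 224 ISC/proliferating cells and 121 of 1235 T cells, and median depths before it were 9922 UMIs in enterocytes, 5527 in tuft cells and 4263 in T cells.

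Along the villus, the absorptive cells (enterocytes and early enterocytes) of each library were put in order by a score of tip and bottom landmark genes, none of them a member, and divided into 5 zones of equal cell number. Zones are ranges of this score and not cell types. The bottom landmarks Reg3b, Reg3g, Dmbt1, Nlrp6, Il18 and Ccl25 were also early enterocyte markers, and the tip landmark Apoa4 an enterocyte marker. Zones and classes thus rest in part on the same genes and cells and are not independent. Between 9.94% and 11.3% of a library's absorptive cells lay within 0.05 score units of a boundary. Slc5a1, the apical sodium-glucose transporter and not used in the score, was highest in zone 2. The other mid-villus genes checked did not all peak there over the libraries together. Slc2a2 and Slc2a5 were higher in zone 2, at 3.70 and 0.837 UMIs per 10000, than in zones 1 and 3. Slc15a1 was higher in zone 3 (3.71) than in zone 2 (3.38), and Slc7a7 fell from 1.71 in zone 1 to 1.12 in zone 4. Median UMIs per cell fell from 17230 in zone 1 to 8600 in zone 5, and 11105 genes were tested.

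Cdhr2 rose from the bottom to the tip in every library. From zone 1 to zone 5 it went through 7.56, 15.3, 17.6, 18.7 and 18.9 UMIs per 10000 in the Duodenum, 7.61, 14.0, 15.9, 17.0 and 17.5 in the Jejunum, and 6.60, 16.5, 21, 24.5 and 26.1 in the Ileum. Each step was upward and the first was the largest. Its log2 difference between zone 5 and zone 1 was 2.09 (SE 0.18, edgeR adjusted p = 5.96e-07). Cdhr5 went from 10.2 to 19.2 in the Duodenum, from 12.3 to 19.3 in the Jejunum and from 11.2 to 33.1 in the Ileum, a log2 difference of 1.63 (SE 0.18, edgeR adjusted p = 4.69e-06). In the Jejunum it was already at 20.2 in zone 3.

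Myo7b and Anks4b were also higher at the tip than at the bottom. In UMIs per 10000, without TMM, they were highest in zones 2 or 3, Myo7b in 2 of 3 libraries and Anks4b in 3 of 3, while with TMM zone 5 was not below zone 3, with log2 differences of 0.24 and 0.29 that were not called (-0.19 and -0.14 without TMM). Myo7b went through 1.59, 3.11, 3.32, 2.93 and 2.33 UMIs per 10000 in the Ileum, and from 1.52 to 2.44 with no fall in the Duodenum. Anks4b peaked in zone 3 at 1.54 and 1.76 in the Duodenum and Jejunum, and in zone 2 at 2.08 in the Ileum. Zone 5 was above zone 1 in every library for both. The log2 differences between these zones were 1.15 for Myo7b (SE 0.14, edgeR adjusted p = 1.04e-05) and 0.89 for Anks4b (SE 0.12, edgeR adjusted p = 2.02e-05).

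Ush1c was nearly level in UMIs per 10000, going from 1.24 to 1.17 in the Duodenum, from 1.27 to 1.02 in the Jejunum and from 1.23 to 1.27 in the Ileum, where it peaked at 1.58 in zone 3. With TMM its log2 difference between zone 5 and zone 1 was 0.48 (SE 0.12, edgeR adjusted p = 0.00304), and without TMM it was -0.12 and not called. The median of all genes was -0.09 with TMM and -0.70 without it, so Ush1c lay above the median gene on both scales. A few abundant genes moved with this shift, as the 10 most abundant genes of absorptive cells took 22.5% of UMIs in zone 1 and 33.5% in zone 5 of the Duodenum, 24.7% and 37.2% in the Jejunum, and 17.9% and 28.7% in the Ileum. These 10 genes include Apoa4, a tip landmark of the zone score. Over the libraries together Apoa4 went from 42.9 UMIs per 10000 in zone 1 to 430 in zone 5. The rise of the share was thus in part set by how the zones were made.

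Calml4 was the member that fell. It went through 5.81, 5.5, 4.81, 4.67 and 3.72 UMIs per 10000 in the Duodenum. The course was 5.81, 5.15, 4.00, 3.41 and 2.57 in the Jejunum, and 5.12, 4.67, 3.82, 3.06 and 2.16 in the Ileum. Each step was downward in each library, while Myo7b, the motor whose light chain it is, was higher in zone 5 than in zone 1. The log2 difference was -0.41 (SE 0.11, edgeR adjusted p = 0.00352) with TMM and -1.02 without it. It was not called without the Jejunum, in cells with at most 20% mitochondrial UMIs, or without the library as a block, with log2 differences of -0.39, -0.39 and -0.40 (edgeR adjusted p = 0.0823, 0.0546 and 0.149). Calml4's share of the 6 genes' UMIs fell from 21.1%, 19.2% and 18.9% in zone 1 to 7.95%, 5.79% and 3.24% in zone 5.

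Counted together, 5 of 6 members were higher and 1 lower in zone 5 than in zone 1, where 33.6% of all genes were higher and 37.3% lower. Between zones 3 and 1, Cdhr2, Cdhr5, Myo7b and Anks4b were higher, by 1.47, 1.09, 0.91 and 0.59 on the log2 scale, where 24.0% of all genes were higher. Between zones 5 and 3 only the protocadherins were called, with log2 differences of 0.62 for Cdhr2 (edgeR adjusted p = 0.0131) and 0.54 for Cdhr5 (edgeR adjusted p = 0.0267), where 20.5% of all genes were higher. Neither was called without the Jejunum, without TMM, without the library as a block or with 3 zones, and Cdhr2 alone was without the Duodenum. With the score taken at 3000 UMIs 1 member was higher, and in the enterocyte class alone 4 were. Without TMM 1 member, Calml4, was lower.

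**Figure D3:**
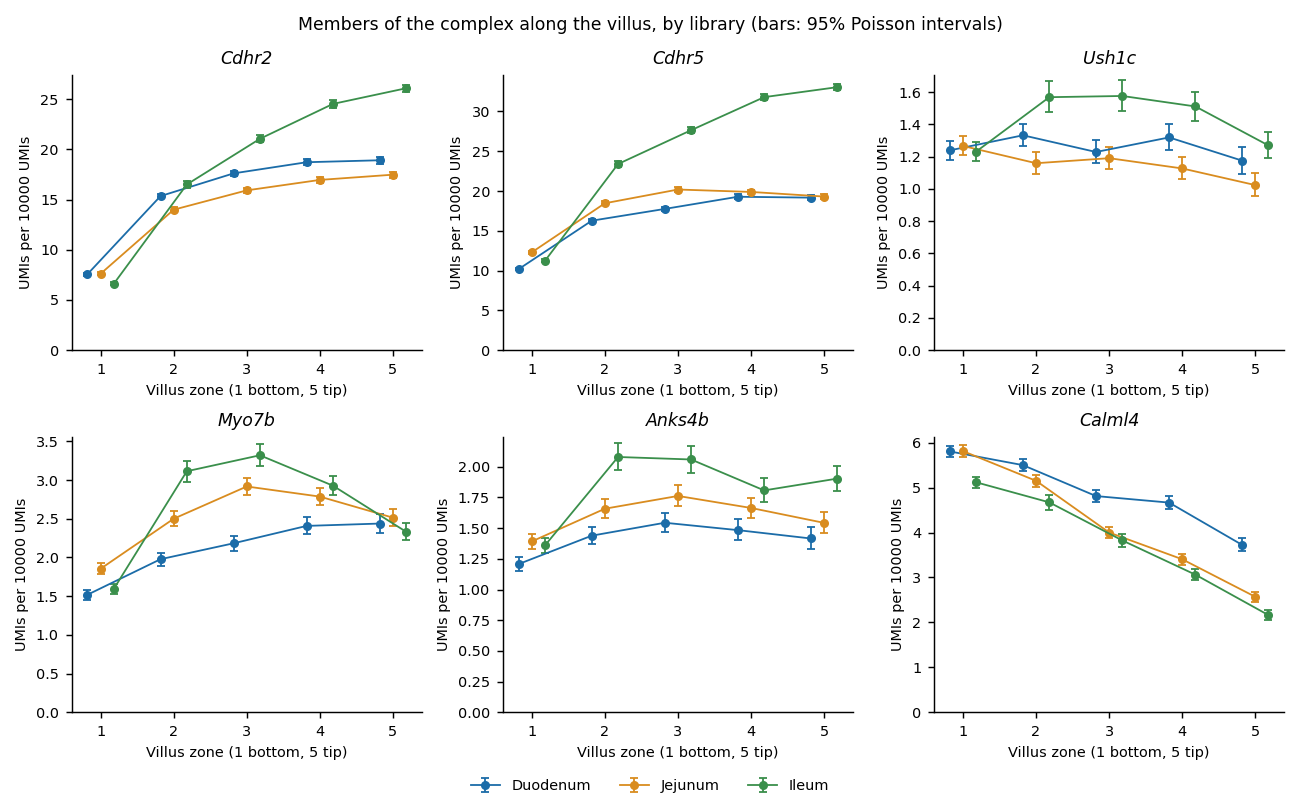
Levels of the 6 members over the 5 villus zones, as UMIs per 10000 UMIs, with a line for each library and bars for exact 95% Poisson intervals. Cdhr2 and Cdhr5 climbed to 26.1 and 33.1 in the Ileum, in these units, without TMM, Myo7b fell after zone 3 in the Jejunum and Ileum but not in the Duodenum, and Calml4 declined in all libraries.

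Other genes of the brush border were read from lists chosen with earlier results of these data known, and are described by counts. Of 13 genes of the microvillus core, 9 were higher and 1 (Baiap2l2) lower in zone 5 than in zone 1, where 33.6% of all genes were higher and 37.3% lower, with a median log2 difference of 0.64 against 1.02 for the members. The leading ones were Eps8 (2.38), which caps and bundles actin at the tip, Baiap2l1 (2.0), the bundler Espn (1.99) and the scaffold Slc9a3r1 (1.73), and Vil1, the bundler villin, was at 0.89. Without TMM the count became 5 higher and 5 lower. Of 8 genes of apical membrane trafficking, 5 were higher and 1 (Vipas39) lower (3 lower without TMM), led by the syntaxin Stx3 (1.45) and the myosin chaperone Unc45a (1.28).

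Among the inner-ear counterparts of the complex, 3 of 6 were abundant enough to be tested. Myo7a, the close relative of Myo7b, was lower in zone 5 than in zone 1 by 2.0, and Whrn, a relative of Ush1c, by 2.26 on the log2 scale, the opposite of Myo7b and Ush1c under TMM. Pdzd7, another relative of Ush1c, was at 0.86 and not called (SE 0.69). Of 8 intestinal transcription factors, Hnf4a (2.13), Gata4 (1.22) and Elf3 (1.08) were higher and Cdx1 (-1.20), Hnf4g (-1.18) and Cdx2 (-0.59) lower. From ISC/proliferating cells to early enterocytes, 12 of 13 core genes rose with a median of 2.31 against 2.07 for the members, and 7 of 8 trafficking genes rose, where 23.3% of all genes were higher.

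In tuft cells, 10 of 13 core genes were lower than in enterocytes and 1 (Myo6, 1.42) was higher (2 higher without TMM), where 25.2% of all genes were lower. The median log2 difference of the core was -2.15, beside -0.56 for the members, and the difference between the lists was not tested. Pdzk1 (-3.69), Cobl (-3.43), Eps8 (-3.36) and Pls1 (-3.10) lay lowest and Vil1 was at -1.44. The bundler Espn, at 0.83, was not called. Of 8 trafficking genes 3 were lower and 0 higher with edgeR (1 higher without TMM), and of 7 transcription factors 5 were lower (3 without TMM) and 1 (Cdx1, 2.05) higher.

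**Figure D4:**
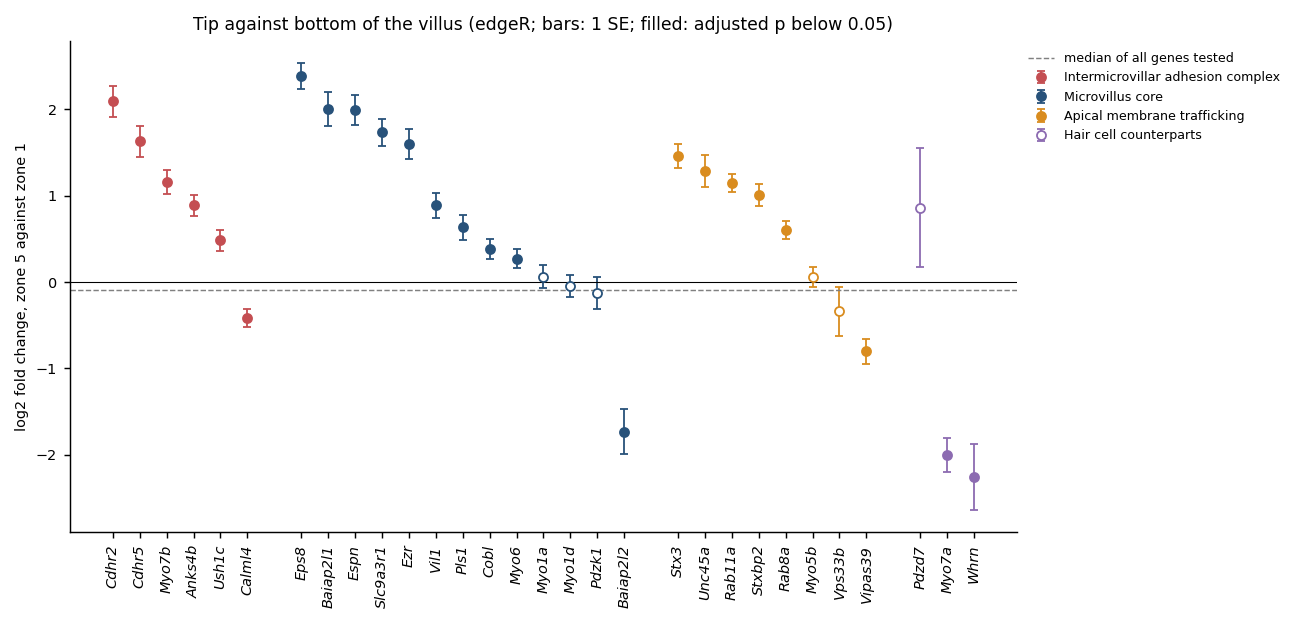
Log2 fold changes with TMM of the members and of the genes of the microvillus core, apical trafficking and inner-ear lists, zone 5 over zone 1, each point a gene with a bar of 1 SE, filled where it passed the test at an adjusted p of 0.05. The dashed line is the median of all genes tested. The members lay between -0.41 (Calml4) and 2.09 (Cdhr2), the core genes reached 2.38 (Eps8), and the inner-ear counterparts Myo7a and Whrn were at -2.0 and -2.26 and Pdzd7, not called, at 0.86.

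Between segments there was 1 library each, so values are given with counting intervals only and no test. In absorptive cells Cdhr5 stood at 15.6, 17.5 and 23.2 UMIs per 10000 in the Duodenum, Jejunum and Ileum, 1.48-fold more in the Ileum than in the Duodenum. Cdhr2 stood at 14.5, 13.7 and 17.0, Myo7b at 2.01, 2.45 and 2.47, Anks4b at 1.40, 1.59 and 1.76, and Ush1c at 1.26, 1.17 and 1.39. Calml4 ran the other way, at 5.08, 4.4 and 3.96, or 0.779-fold in the Ileum of the Duodenum. None of the 6 was past 2-fold between any pair of segments, under any of 8 settings. Of all genes with at least 100 UMIs, 22.8% were past 2-fold between Ileum and Duodenum, 14.4% between Jejunum and Duodenum, and 15.5% between Ileum and Jejunum.

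The mitochondrial share differed between the libraries. Per non-mitochondrial UMI the log2 ratio of Ileum to Duodenum was 0.34 for Cdhr5, 0.01 for Cdhr2, 0.07 for Myo7b, 0.11 for Anks4b, -0.08 for Ush1c and -0.58 for Calml4. On that scale the log2 ratio of Ileum to Jejunum was -0.20 for Myo7b, -0.06 for Anks4b and -0.36 for Calml4. It was 0.20 for Cdhr5, 0.10 for Cdhr2 and 0.04 for Ush1c. Calml4 was below the Duodenum in the Ileum under all 8 settings, including zones 1, 3 and 5 taken alone, and Cdhr5 was above it under all 8. In zone 1 alone the Cdhr2 ratio was -0.20, whereas in zone 5 it was 0.46. Of the other genes of the brush border, 4 of 13 core genes were past 2-fold between Ileum and Duodenum, namely Espn, Ezr, Slc9a3r1 and Pdzk1, each higher in the Ileum. Of the transcription factors Gata4 was lower in the Ileum (log2 ratio -2.48) and Cdx1 higher (1.37).

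**Figure D5:**
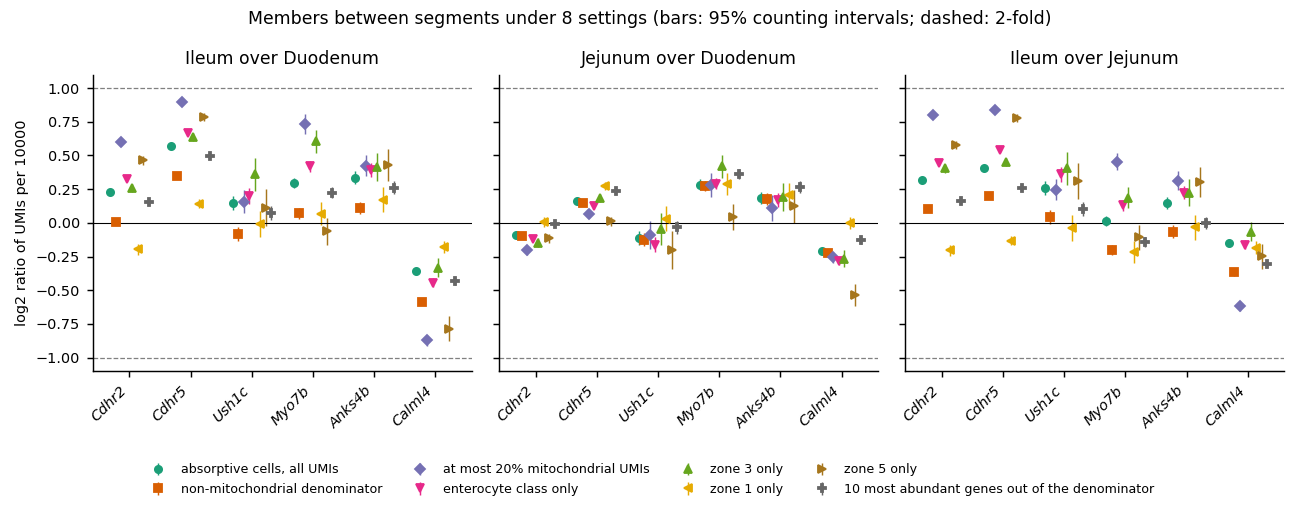
Log2 ratios of each member between segments in absorptive cells, with 95% counting intervals, under the 8 settings named in the legend, and the 2-fold limits as dashed lines. All ratios lay within the limits, and for Ileum over Duodenum Calml4 was below 0 and Cdhr5 above 0 under each setting.

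Over 45 sums of a class or zone in a library, the gene most like the mean profile of the members among 4707 genes was Vil1, with a Pearson correlation of 0.963. Among the genes that followed were Edf1 (0.962), Rnf128 (0.948), Smim22 (0.942), C77080 (0.940), Casz1 (0.938), March8 (0.935), Tmem54 (0.934) and Tmem236 (0.933). Cdhr2 and Cdhr5 were most like each other (0.969). Espn (0.966) and the myosin gene Myo15b (0.951) came next for Cdhr5, and Myo15b (0.940) for Cdhr2. Ush1c was closest to Casz1 (0.945) and then to Calml4 (0.941), and Calml4 to Fbp2 (0.944) and Ush1c. Tor1aip2 (0.943) was among the genes most like Myo7b, and Anks4b was closest to Vil1 (0.954). The least alike pair of members was Cdhr2 and Calml4 (0.684). The sums share libraries and cells, so these correlations are descriptions.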

How the data were processed

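The series held 3 droplet libraries of the 3′ kind, 1 each from Duodenum, Jejunum and Ileum, and samples were grouped by the segment in their labels. The authors counted UMIs with Cell Ranger 3.0.2 on GRCm38 (mm10), and deposited them as whole UMI counts, neither normalized nor filtered further. 0 columns were left unused. The study's filters were applied here: a cell had to show from 200 to 6000 genes, from 800 to 50000 UMIs, and no more than 40% mitochondrial UMIs. The Ileum had the lowest depth per cell.

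The 3 libraries were integrated and clustered in Seurat 5.3.0 (R 4.3.3) on 2000 variable genes and 30 components at resolution 0.8, with the 6 members and the listed pathway genes left out of the variable genes. Clusters were named by marker lists where at least 3 markers were found in at least 10% of cells, by rules settled after the clusters were seen. Scrublet, run through scanpy 1.11.5, marked 0, 0 and 146 cells (Duodenum, Jejunum, Ileum) as doublets, which were kept in the main values, so doublets in the first and second library were not recognised. UMIs were summed per library and class (at least 10 cells) or zone, and tested with edgeR 4.0.16 (quasi-likelihood, TMM, filterByExpr) with each library as a block. P-values were adjusted by Benjamini-Hochberg across all tested genes, with a threshold of 0.05. The procedure was tested on simulated sums drawn from the same mean profile, so that test does not cover the scaling shift between classes or zones. Segments were compared as ratios with counting intervals at a 2-fold limit. Intervals are exact 95% Poisson intervals and cover counting error only. No replicate numbers pair the libraries.

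Genes named were the 6 members, at most the 4 list genes with the largest and smallest change per comparison, class markers, and the genes most like the members by Pearson correlation of log2(UMIs per 10000 + 0.1). The mid-villus check genes were named as well. Vil1, Espn, Myo6, Vipas39 and the list genes called between segments or in a transcription factor count were named after their values were seen. The members, lists and tests were chosen with earlier results of these data known. Alternatives were library totals without TMM, DESeq2 1.42.0, no filter on low counts, no block, each library left out, other limits on mitochondrial UMIs, doublets removed, other resolutions and other zone scores. Proteins were not analysed here, and a few listed or similar genes are not reported here.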

Additional observations from a re-analysis of the deposited data

Results flagged for a closer look

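In 4 comparisons the libraries moved in opposite directions, each with a 95% counting interval that left out 0, and the differences between libraries were not tested. For Cdhr5, the log2 ratio of zone 5 to zone 3 was 0.11 in the Duodenum and 0.26 in the Ileum but -0.065 in the Jejunum. For Myo7b, the same ratio was 0.16 in the Duodenum, and -0.21 and -0.51 in Jejunum and Ileum, so that its fall at the villus tip was seen in 2 of 3 libraries. For Ush1c, the log2 ratio of early enterocytes to enterocytes was 0.20 in the Jejunum, -0.10 in the Duodenum and -0.34 in the Ileum. For Cdhr2, the log2 ratio of tuft cells to enterocytes was 0.22 in the Jejunum and -0.32 in both other libraries, where 67 tuft cells stood behind the Jejunum, 47 behind the Duodenum and 187 behind the Ileum. These ratios use UMIs per 10000 without TMM.

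A cluster of 1004 cells that was left unnamed and out of the comparisons held all 6 members above the level of T cells. Its leading genes were Gm26917, Fgf15, which ileal enterocytes secrete in response to bile acids, and Fabp6, the ileal bile acid binding protein, and 695 of its cells came from the Ileum, 197 from the Jejunum and 112 from the Duodenum. Cdhr2 stood at 7.48 UMIs per 10000, Cdhr5 at 15.0, Ush1c at 1.35, Myo7b at 2.70, Anks4b at 1.76 and Calml4 at 3.13. Its Cdhr2 and Cdhr5 lay between early enterocytes (3.9 and 7.48) and enterocytes (17.4 and 21), and its Calml4 lay below both (5.55 and 4.27).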

How the results depend on the processing

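Over all alternatives, 1304 of 1314 member fold changes kept their direction and 1221 their call, while 61 lost a call, 22 gained one and 10 changed sign. Beside the scaling shift, the cause of each move was not tested.

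On library totals without TMM, Ush1c changed sign between tuft cells and enterocytes (0.17), between zones 5 and 1 (-0.12) and between zones 5 and 3 (-0.20), and between those zones Myo7b (-0.19) and Anks4b (-0.14) did too. Members then called higher numbered 1 between tuft cells and enterocytes, 2 between goblet and T cells and 0 between zones 5 and 3, and members called lower numbered 1 between tuft cells and enterocytes, 1 between zones 3 and 1 and 1 between zones 5 and 3. List genes then called between zones 5 and 1 were 5 higher and 5 lower of the microvillus core, and 3 lower of trafficking. Between tuft cells and enterocytes they were 2 higher of the core, 1 higher of trafficking and 3 lower of the transcription factors, and 1 transcription factor each was higher and lower between early enterocytes and ISC/proliferating cells. DESeq2 called 1 member higher between tuft cells and enterocytes and 1 lower between zones 3 and 1.

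With each library left out in turn, the number of members called lower ranged from 2 to 4 between early enterocytes and enterocytes, 3 to 5 between goblet cells and enterocytes, 1 to 2 between tuft cells and enterocytes, and 0 to 1 between zones 5 and 1. The number called higher ranged from 1 to 3 between tuft and goblet cells, 3 to 6 between goblet and T cells, and 0 to 3 between zones 5 and 3. The lowest count came without the Ileum for the classes and without the Jejunum for the zones. Trafficking genes lower between zones 5 and 1 ranged from 1 to 2, the most without the Duodenum, and transcription factors higher between early enterocytes and ISC/proliferating cells from 1 to 2, the least without the Jejunum. Ush1c between tuft and goblet cells ranged from -0.00936 (without the Duodenum) to 0.36.

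Without the library as a replicate block, 0 members were lower between zones 5 and 1 and 0 were higher between zones 5 and 3. In cells with at most 20% mitochondrial UMIs, 0 members were lower between zones 5 and 1 and 1 was lower between zones 5 and 3, and Calml4 stood at 0.11 between zones 3 and 1 and at -0.0830 between early enterocytes and enterocytes. The latter was -0.039 at resolution 1.2, and -0.031 with the cluster led by Gm26917, Fgf15 and Fabp6 counted as early enterocytes, an alternative chosen after seeing the data. Between zones 5 and 3, 0 members were higher with 3 zones, 1 with the score taken at 3000 UMIs per cell and 4 in the enterocyte class alone, where 1 was lower between zones 3 and 1. The Ileum, with the lowest depth per cell, held most T cells and tuft cells, and the Jejunum had 24 EECs.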

Other observations

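The barcodes removed for more than 40% mitochondrial UMIs, 5068, 3546 and 1222 in Duodenum, Jejunum and Ileum, still held the members, and not in the proportions of the cells that were kept. Per 10000 non-mitochondrial UMIs, Calml4 stood at 4.62 in removed and 6.40 in kept barcodes of the Duodenum, with 4.15 and 5.52 for Jejunum and 3.56 and 3.57 for Ileum. Myo7b stood at 3.97 in removed and 2.45 in kept barcodes of the Duodenum, with 5.07 and 3.03 for Jejunum and 4.13 and 2.13 for Ileum. Cdhr2 was also higher in the removed barcodes, at 20.6 against 17.2, 22.2 against 16.6, and 19.1 against 14.0. The kept barcodes hold all classes, immune cells included, and the removed ones were not sorted into classes.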
